A study of Mus musculus with 4 samples.

Results

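The ventricular zone (VZ) progenitors of the caudal ganglionic eminence (CGE) numbered 165 cells of the 3248 cells kept from the CGE library, and the 4 libraries together held 16544 kept cells. They were chosen by the levels of 2 transcripts in each cell: Nes, which encodes the intermediate filament nestin of neural stem cells, and Dcx, which encodes a microtubule protein of migrating young neurons. A cell was a member when ln(1 + UMIs per 10000) was above 1.5 for Nes and at most 1.5 for Dcx, where a UMI (unique molecular identifier) marks 1 captured transcript. The libraries came from droplet-based single-cell RNA sequencing of wild-type mouse embryos at E12.5. There was 1 for each of the CGE, the lateral (LGE) and medial (MGE) ganglionic eminences and the cortex (CTX). The tissue of each library was dissected and pooled over C57BL/6 embryos of both sexes, so a region had 1 sample and its cells were not replicates of it. No p-value is given for this reason, and every interval in brackets is an exact 95% interval for counting error alone, which leaves out the spread between embryos, dissections and libraries. Intervals of summed levels and of their ratios also leave out the spread between cells.

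The VZ lines the lateral ventricle and holds radial glia, the dividing stem cells from which the forebrain is built. Notch signalling between neighbouring cells keeps radial glia undifferentiated, and in the ganglionic eminences their daughter cells divide again in the subventricular zone and become GABAergic neurons under the homeodomain factors Dlx1 and Dlx2. The CGE is known as the source of many cortical interneurons that are born late, and the orphan nuclear receptors Nr2f1 and Nr2f2 (COUP-TFI and COUP-TFII) mark the caudal part of the developing ventral forebrain.

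Kept barcodes had more than 1500 and fewer than 4500 genes, under 5% mitochondrial UMIs and under 1% UMIs of Hbb genes, and 3248 of 4301 CGE barcodes met this. The progenitors made up 5.08% [4.35–5.89] of the kept CGE cells, against 12.3% [11.3–13.2] for the same gate among 4810 LGE cells, 10.7% [9.86–11.6] among 4852 MGE cells and 24.9% [23.5–26.4] among 3634 CTX cells. With each cell thinned at random to 3000 UMIs the shares were 3.5%, 8.35%, 8.27% and 16.0% in the same order. The CGE share was the lowest of the 4 either way. The labels give a sort for live cells, while the published methods leave wild-type tissue unsorted, and the part of such a step in the shares was not tested.

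The progenitors held a median of 9434 UMIs per cell, from 2593 to 15139, and 1515986 UMIs in all. The other CGE cells had a median of 6910 UMIs, and cells passing the same gate had medians of 8407 in LGE, 9939.5 in MGE and 8483.5 in CTX. Mitochondrial genes took 1.75% of the progenitors' UMIs and from 1.59% to 1.67% in the gated cells of the other libraries. The progenitors included 3 predicted doublets, 1.82% of them, and shared 1 cell barcode with the CTX library, 1 with MGE and 0 with LGE.

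Nes chose the members, so its level is a description. It ran from 1 to 15 UMIs per member with a median of 5, and 135 of the 165 had no Dcx UMI. The lowest member lay at 1.501 on the ln scale for Nes and the highest cell left out lay at 1.486. Among the 182 CGE cells above the Nes limit, 17 were left out by Dcx, the lowest of them at 1.508, while the highest member had 1.341.

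The genes proposed as marks of these cells were checked as summed levels, in CPM, the UMIs of a gene per 1000000 UMIs of all genes over a group of cells. Fabp7, a fatty acid binding protein of radial glia, stood at 6822 CPM [6691–6955] in the progenitors. It stood at 687 CPM in the other CGE cells, 1622 in gated LGE cells, 1572 in gated MGE cells and 907 in gated CTX cells. Igfbp5, a secreted binding protein for insulin-like growth factors, stood at 257 CPM [232–284] against 27.3 in the other CGE cells, 28.8 in LGE, 56.3 in MGE and 73.9 in CTX. Both were highest in the CGE progenitors among the 5 groups of cells. Veph1, a protein with a pleckstrin homology domain, stood at 117 CPM [101–136] against 10.4, 16.7, 5.15 and 4.88 CPM in the same order. Nr2f2 divided the groups differently, by library rather than by gate. It stood at 388 CPM [357–421] in the progenitors, 596 in the other CGE cells, 3.17 in LGE, 45.4 in MGE and 2.57 in CTX. Nes itself stood at 627 CPM in the progenitors, 562 in LGE, 669 in MGE and 570 in CTX. In each of the 4 comparisons 4 of these 5 genes were at least 2-fold higher and 0 lower, and the gate or the choice of markers had used these levels. They are therefore a description of the cells and no independent check of the label, and none of the 5 was absent.

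**Figure D1:**
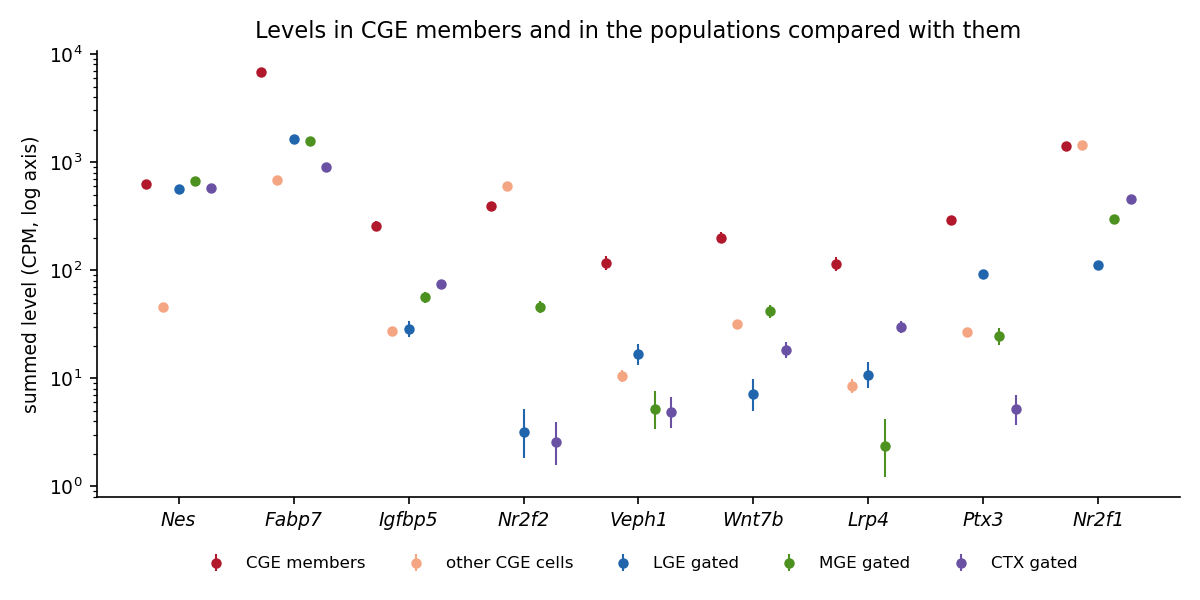
Summed levels in CPM, on a log axis, of 9 genes in the CGE progenitors (CGE members), the other kept CGE cells and the cells passing the same gate in LGE, MGE and CTX, with exact 95% Poisson intervals as bars. Nes lay close together in the 4 gated groups (562 to 669 CPM), while Fabp7, Igfbp5, Veph1, Wnt7b, Lrp4 and Ptx3 were highest in the CGE progenitors, and Nr2f2 and Nr2f1 were as high or higher in the other CGE cells.

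Against the other CGE cells, 762 of 6893 genes tested (11.1%) were at least 2-fold higher in the progenitors and 775 (11.2%) at least 2-fold lower, where a gene was tested when the mean CPM of both groups was 20 or more. The gate used this contrast, so the counts describe what came with high Nes and low Dcx. The same holds for each gene list set against the other CGE cells below, for which these shares are the background. Of the 3083 other CGE cells, 2330 were above the Dcx limit. Among the 1932 genes at 100 CPM or more in the progenitors, the 10 with the largest ratios, Nes left aside, were Rgcc (14.9), Lrp4 (13.5), Hes5 (11.5), Ednrb (11.4), Veph1 (11.2), Pdpn (11.1), Ptx3 (10.8), Hes1 (10.3), Ttyh1 (10.2) and Fabp7 (9.93). The list joins the Notch targets Hes1 and Hes5 to membrane and secreted proteins of radial glia, such as the endothelin receptor Ednrb. Rgcc, a regulator of cell cycle kinases, headed the list at 164 CPM against 11.1, and it was still lower than in gated LGE cells (348 CPM) and gated MGE cells (326 CPM).

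The question of what sets CGE progenitors apart was put to cells that passed the same gate elsewhere. Of the genes tested, 132 of 6708 (1.97%) were at least 2-fold higher in the CGE progenitors than in gated LGE cells, 120 of 6674 (1.80%) than in gated MGE cells and 272 of 6707 (4.06%) than in gated CTX cells. At least 2-fold lower were 91 (1.36%), 67 (1.00%) and 156 (2.33%). These 3 comparisons share the CGE progenitors. In each of the 3, from 4 to 5 of the genes called higher had more than 50% of their UMIs in 1 progenitor, and the cells concerned are described below with other cell types. The shares over all genes tested are the background for the counts of each gene list below. Median log2 ratios over all genes tested were 0.00, 0.03 and 0.01 against LGE, MGE and CTX. A count of 1 in a short list is not read as a trait of that list.

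Of the 1933 genes at 100 CPM or more in the progenitors, Nes included, 21 stood at least 2-fold above each of the other 3 libraries. Nr2f2 stood furthest above the highest of them, at 8.55 times [7.33–10.0] its level in gated MGE cells, and at 122 times [74.6–215] its level in LGE and 151 times [96.8–249] in CTX. Veph1 followed at 7.05 times [5.41–9.25] its level in LGE. Ptx3, which encodes a secreted pentraxin and lies on the opposite strand within Veph1, stood at 290 CPM in the progenitors, 92.2 in LGE, 24.4 in MGE and 5.14 in CTX. The paper gives default parameters for Cell Ranger without naming the use of strand, and a sharing of reads between Veph1 and Ptx3 was not tested. On GRCm38, Veph1 spans bases 66053558 to 66296837 of chromosome 3 on the minus strand and Ptx3 spans 66219910 to 66225805 on the plus strand.

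A secreted ligand and a receptor-like protein of the Wnt pathway were also among the 10 genes furthest above every other library. Wnt7b, a Wnt ligand, stood at 199 CPM [177–223] in the progenitors, 7.14 in LGE, 41.6 in MGE and 18.4 in CTX. Lrp4, a relative of the Wnt co-receptors, stood at 115 CPM [98.4–133] against 10.7, 2.38 and 29.9 CPM. In neither gene did the interval of another library reach that of the CGE. Cdh4, the cell adhesion protein R-cadherin, stood at 113 CPM against 20.6 in LGE, 25.6 in MGE and 29.2 in CTX. Ly6h, a membrane-anchored modulator of nicotinic receptors, stood at 117 CPM against 16.1, 24.8 and 24.8, and it was higher still, at 373 CPM, in the other CGE cells. Fam172a stood at 205 CPM against 44.6, 53.9 and 52.8. Fabp7 and Igfbp5 completed the 10 genes furthest above every other library, with Ptx3 in the last place at 3.15 times its LGE level.

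The same ratios in high-Dcx cells, which are young neurons with ln(1 + Dcx UMIs per 10000) above 1.5, show which of these 10 differences were also found outside the VZ. Nr2f2 in high-Dcx CGE cells stood at 6.95 times the highest of the other 3 libraries, Ptx3 at 4.84, Veph1 at 3.52, Igfbp5 at 2.74 and Lrp4 at 2.35 times. Fabp7 stood at 1.16 times, Ly6h at 1.25, Cdh4 at 1.55 and Fam172a at 1.98 times. Wnt7b turned over, at 0.0643 times, because high-Dcx CTX cells held 266 CPM of it and high-Dcx CGE cells 17.1 CPM. The levels of Igfbp5, Veph1, Lrp4 and Ptx3 in high-Dcx CGE cells were at most 7.58 CPM, against 115 to 290 CPM in the progenitors.

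**Figure D2:**
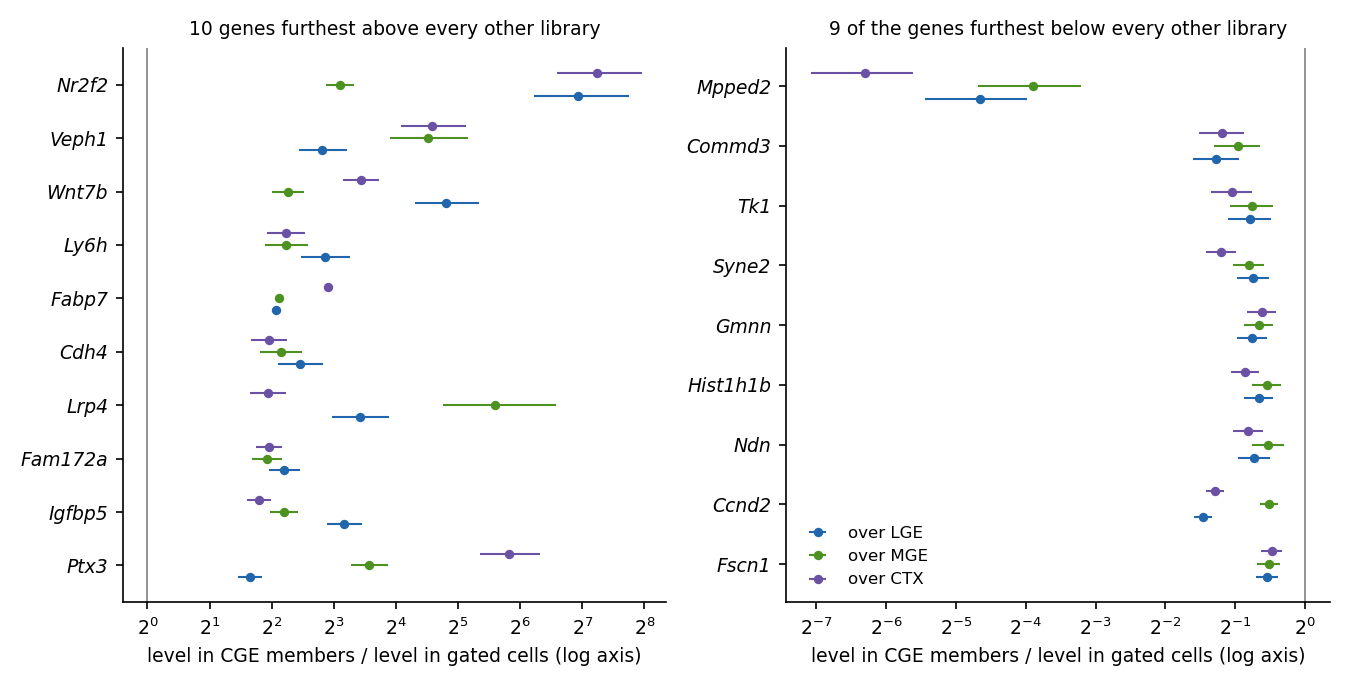
Ratio of the summed level in CGE progenitors to that in cells passing the same gate in LGE, MGE and CTX, on a log axis, for the 10 genes furthest above (left) and 9 of those furthest below (right) every other library, with exact 95% intervals as bars. Nr2f2 was 8.55-fold to 151-fold higher and Mpped2 was the one gene far below all 3 libraries, while the other genes on the right lay between 0.36 and 0.72.

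Counted per cell after thinning to 3000 UMIs, 62.0% [54.0–69.4] of 163 progenitors held a UMI of Nr2f2, against 1.40% of gated LGE cells, 10.1% of MGE and 0.57% of CTX. The LGE, MGE and CTX shares do not measure free RNA in the CGE library, where 66.2% of high-Dcx cells also held a UMI, and the part of free RNA in the share of Nr2f2 was not tested. A UMI of Fabp7 was found in 96.3% [92.2–98.6] of the progenitors, of Nr2f1 in 93.9% and of Ptx3 in 49.7%. Igfbp5 was found in 42.3% [34.6–50.3], against 1.70% of high-Dcx CGE cells and 19.1% of gated CTX cells. Wnt7b was found in 35.6% [28.3–43.5] of the progenitors against 2.75% of high-Dcx CGE cells and 10.4% of gated MGE cells. Veph1 was found in 22.7%, against 0.436% of high-Dcx CGE cells, 5.95% of gated LGE cells and 1.55% of gated MGE cells. Lrp4 was found in 22.1%, against 0.479% of high-Dcx CGE cells and 8.09% of gated CTX, 3.15% of LGE and 0.58% of MGE cells. High-Dcx CGE cells had a median of 6782.5 UMIs before thinning.

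Single progenitors varied widely around these sums. Fabp7 ran from 0 to 270 UMIs per 10000 with a median of 49.6 and quartiles of 23.6 and 92.8, and 2 of the 165 held none. Nr2f2 had a median of 2.97 and a highest value of 21.0 UMIs per 10000, and 21 progenitors held none. Igfbp5 had 60 progenitors at 0, a median of 1.10 and a highest value of 25.9, and 1 cell held 8.72% of its UMIs. Veph1 had 83 progenitors at 0. No single cell held more than 5.17% of the UMIs of Fabp7, Nr2f2, Veph1, Wnt7b, Lrp4 or Ptx3.

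**Figure D3:**
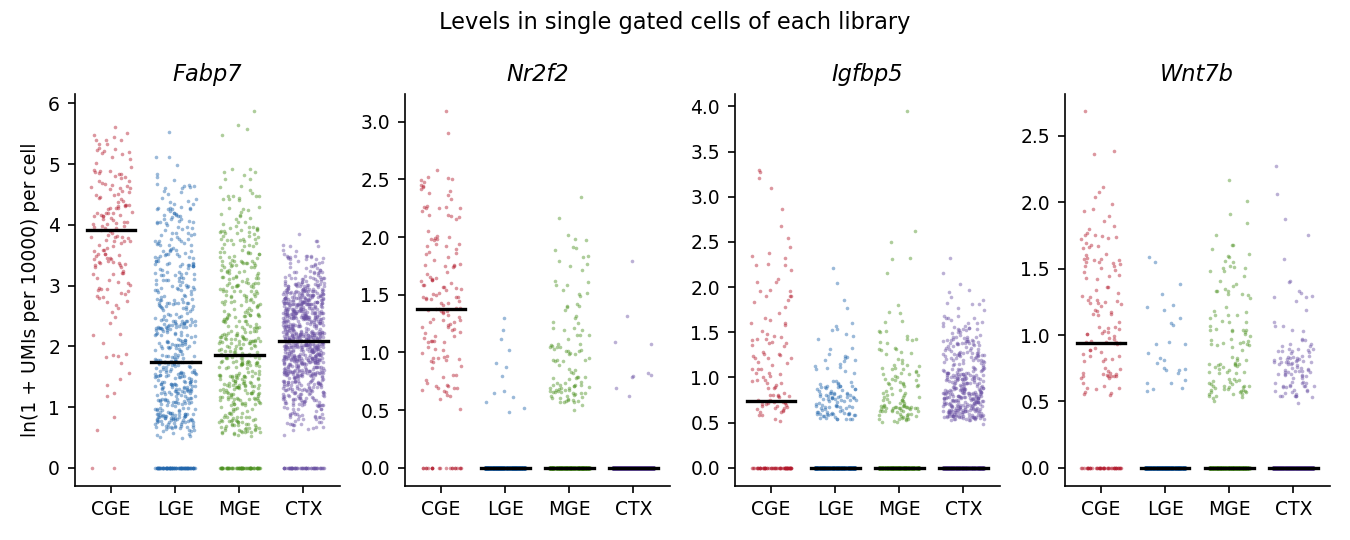
Levels of Fabp7, Nr2f2, Igfbp5 and Wnt7b, as ln(1 + UMIs per 10000), in each of the 165 CGE progenitors and in each of the 589 LGE, 520 MGE and 906 CTX cells passing the same gate, with a black line at the median. The median lies above 0 for all 4 genes in the CGE and for Fabp7 alone in the other libraries, and Fabp7 values of the libraries overlap.

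Among the genes lower than in every other library Mpped2, which encodes a metallophosphoesterase, stood at 11.2 CPM [6.53–17.9] in the CGE progenitors, 284 in LGE, 168 in MGE and 884 in CTX, which made it 25.3-fold, 15.0-fold and 78.8-fold lower. After thinning a UMI of Mpped2 was found in 3.68% of the progenitors, 48.2% of gated LGE cells, 30.8% of MGE and 86.0% of CTX. The 17 UMIs in the progenitors lay in 9 cells, and 1 of these held 47.1% of them. The low level was not found in high-Dcx CGE cells, which held 301 CPM and of which 31.6% had a UMI after thinning. Others far down in the order of 1675 genes were Commd3 (0.51 times the lowest of the 3), Tk1 (0.59), Syne2 (0.60), Gmnn (0.65), Hist1h1b (0.68), Ndn (0.69), Ccnd2 (0.70) and Fscn1 (0.72). Tk1, Gmnn and Hist1h1b encode a thymidine kinase, geminin and a linker histone, all of which are made in dividing cells.

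Of 19 radial glia genes tested, 18 were higher in the progenitors than in the other CGE cells and 0 lower, with a median log2 ratio of 2.61 beside 0.07 over all genes tested. Sox2 was the exception, at 865 CPM against 684. Against gated LGE cells 3 of 19 were higher and 0 lower (median 0.33 beside 0.00 over all genes), against MGE 6 and 0 (0.33 beside 0.03) and against CTX 8 and 0 (0.86 beside 0.01). Fabp7 and Ptprz1, a receptor tyrosine phosphatase, were higher than in each of the 3. Ptprz1 stood at 1167 CPM against 573 in LGE, 416 in MGE and 86.9 in CTX. Ednrb stood at 359 CPM against 147, 241 and 54.9, and it was at least 2-fold higher than in LGE and CTX. The filament gene Vim (1933 CPM) and Dbi (2706 CPM), a ligand of benzodiazepine receptors, were abundant and within 1.5-fold of LGE and MGE. In a single progenitor the 20 genes took a median of 1.55% of all UMIs, against 0.898% in LGE, 0.887% in MGE and 0.668% in CTX, and the ranges over cells overlapped.

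Of the 12 Notch pathway genes tested, 8 were higher in the progenitors than in the other CGE cells and 0 lower. Over all genes tested, 11.1% were higher and 11.2% lower in this contrast. Hes5, a repressor made when Notch is active, stood at 1013 CPM [963–1065], against 601 in LGE, 1090 in MGE and 479 in CTX. Nrarp, a Notch target that feeds back on the receptor, stood at 293 CPM [266–321] against 108, 181 and 112. Jag1, a ligand, stood at 59.4 CPM against 20.2, 33.9 and 4.50. The receptor Notch1 stood at 418 CPM against 259, 365 and 149. The fewest calls in this pathway were against MGE, where 1 of 13 genes was higher (Notch2, 91.7 against 33.1 CPM), beside 3 of 13 in LGE (Jag1, Lfng and Nrarp) and 6 of 13 in CTX, where Hey1 was lower at 27.7 against 102 CPM. Median log2 ratios were 0.69, 0.20 and 0.98 for LGE, MGE and CTX. Hes1 stood at 101 CPM, against 50.8 in LGE, 63.4 in MGE and 143 in CTX.

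Hes5 and Nrarp are the Notch targets highest in the progenitors, and the 250 bases before their start sites are shown to set 1 promoter with the core letters bound by the Notch cofactor RBPJ beside 1 without them. Sequences are from RefSeq on GRCm38.p6, 5′ to 3′ on the gene's strand, and capitals mark TGGGAA or its reverse complement TTCCCA, searched on both strands.
Hes5 (chr4:154960673-154960922, plus strand): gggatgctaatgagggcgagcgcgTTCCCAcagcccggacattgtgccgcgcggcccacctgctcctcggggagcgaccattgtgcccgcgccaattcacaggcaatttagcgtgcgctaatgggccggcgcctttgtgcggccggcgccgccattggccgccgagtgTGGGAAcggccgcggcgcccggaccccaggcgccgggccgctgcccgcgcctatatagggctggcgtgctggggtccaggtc
Nrarp (chr2:25180508-25180757, plus strand): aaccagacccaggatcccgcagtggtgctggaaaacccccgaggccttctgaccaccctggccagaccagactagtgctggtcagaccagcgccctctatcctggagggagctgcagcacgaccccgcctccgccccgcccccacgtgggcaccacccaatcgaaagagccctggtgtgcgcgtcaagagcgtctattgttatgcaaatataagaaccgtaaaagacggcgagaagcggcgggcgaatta
The 2 matches before Hes5 begin 226 and 82 bases from the start, and no match lies in the Nrarp window. Of all 32851 promoter windows of this length, 21.6% held at least 1 match and 2.77% at least 2, and 3 of the 10 Notch list genes with a window held one. Fabp7 had 1 match, 249 bases before its start. A match of these letters is a description of the window and does not show a binding site.

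Of 10 subpallial factors tested against CTX, 9 were higher and 0 lower in the CGE progenitors, with a median log2 ratio of 5.59. Olig2 stood at 159 CPM against 0.514 in CTX, and Gsx2 at 79.2 against 0, which is at least 205-fold. Dlx1 stood at 254 CPM against a single UMI in CTX, a ratio of 1976 [353–78230]. Against LGE 2 of 10 subpallial factors were higher, Nr2f1 and Nr2f2, and 1 was lower, Six3 at 98.3 against 198 CPM. Against MGE 4 of 12 were higher (Gsx2, Nr2f1, Nr2f2 and Meis1) and 3 lower (Olig1, Olig2 and Nkx2-1). The other subpallial factors tested against LGE were within 2-fold. Nr2f1 stood at 1393 CPM [1334–1454] in the progenitors, 111 in LGE, 300 in MGE and 460 in CTX, and at 1428 in the other CGE cells. Nkx2-1, the factor that sets MGE identity, stood at 34.3 CPM against 553 in MGE, 0.198 in LGE and 0 in CTX, and 1 progenitor held 26.9% of its UMIs.

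Of 8 pallial factors tested against CTX, 8 were lower in the CGE progenitors, with a median log2 ratio of -3.04. Emx1 had 0 UMIs against 165 CPM in CTX, at least 83.2-fold lower by a floor of 3 counts. Emx2 stood at 28.4 CPM against 233 in CTX and 64.8 in LGE, and Lhx2 at 280 against 1036 and 465. Pax6 separated the ventral libraries, at 73.2 CPM in the CGE progenitors, 66.0 in LGE and 0.99 in MGE, beside 320 in CTX. In the thinned cells Pax6 was found in 14.7% of the progenitors, 17.0% of LGE and 0.387% of MGE.

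A list of 15 genes that the study names for regions of the ventricular zone or tabulates, most of them in the CGE, was drawn from these same samples and so is no independent evidence of direction, and 14 or 15 were tested. Higher were 9, 9, 10 and 11 against the other CGE cells, LGE, MGE and CTX, and lower were 0, 3, 1 and 1, with median log2 ratios of 2.81, 2.00, 2.12 and 2.13. Mest, an imprinted gene, was among those lower than in LGE, at 227 CPM against 527. Mt3, a metallothionein, stood at 612 CPM, near LGE (673) and above MGE (190) and CTX (94.6). Fgfr3, a receptor for fibroblast growth factors, stood at 137 CPM against 36.1 in LGE, 52.1 in MGE and 112 in CTX.

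Other signalling pathways were set out by their roles. In the Wnt list 3 of 12 tested genes were higher and 2 lower than in LGE, 3 and 1 of 12 than in MGE, and 2 and 1 of 14 than in CTX, with Wnt7b and Lrp4 higher in all 3 and the transcription factor Tcf7l1 lower in all 3 (14.5 CPM against 48.8, 35.5 and 92.7). The secreted inhibitor Sfrp1 stood at 582.5 CPM against 528, 193 and 858, and the receptor Fzd2 at 163 against 237, 170 and 272. Median log2 ratios were -0.18, 0.32 and -0.34, beside 0.00, 0.03 and 0.01 over all genes tested, with members on both sides. Against the other CGE cells 6 of 11 Wnt genes were higher and 1, the ligand Wnt5a, was lower at 3.96 against 56.6 CPM. In the FGF list Fgfr3 was higher than in LGE and MGE, and Fgfbp3, a carrier of these factors, was lower than in LGE (80.5 against 212 CPM). Fgfr1, Fgfr2, Fgfr3 and Fgfbp3 were the 4 FGF genes tested against other CGE cells, and all 4 were higher, beside 11.1% of all genes tested.

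In the hedgehog list Ptch1, the receptor for hedgehog ligands and itself a target of the pathway, stood at 75.2 CPM in the progenitors, 26.8 in LGE, 53.1 in MGE and 1.54 in CTX. The co-receptor genes went the other way against CTX, with Gas1 at 68.6 against 735 CPM, Boc at 23.7 against 62.5 and Cdon at 0.66 against 165. The single Cdon UMI gives a ratio of 0.00399 [0.000101–0.0223]. Gas1 stood at 80.7 CPM in LGE and at 4.36 in MGE, where it was the gene called higher in the progenitors. In all, 1 of 6 hedgehog genes was higher and 0 lower than in LGE, 1 and 0 of 5 than in MGE, 1 and 3 of 7 than in CTX, and 4 and 0 of 4 than in other CGE cells.

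Id genes, which encode inhibitors of proneural factors and respond to BMP signals, were divided. Id1 stood at 89.7 CPM and Id3 at 95 in the progenitors, against 23.4 and 18.6 in LGE, 49.5 and 48.3 in MGE and 11.6 and 15.8 in CTX. Id4 went the other way, at 71.2 CPM against 176 in LGE, 80.0 in MGE and 571 in CTX. Over the 8 genes tested of the BMP list, 2 were higher and 1 lower than in LGE, 1 and 0 than in MGE (Id2, 47.5 against 16.8 CPM), 2 and 1 than in CTX and 3 and 0 than in other CGE cells. In the list of insulin-like growth factor genes Igfbp5 was the single gene higher, in all 4 comparisons, and none was lower. Its relatives Igfbp2 (176 CPM against 171, 139 and 257) and Igfbp4 (39.6 against 76.5, 48.5 and 55.9) were not called. Of the retinoid list, 1 or 2 genes were tested in a comparison, and Crabp2, a carrier of retinoic acid inside cells, was lower than in MGE and CTX, at 6.60 CPM against 69.5 and 34.4.

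**Figure D4:**
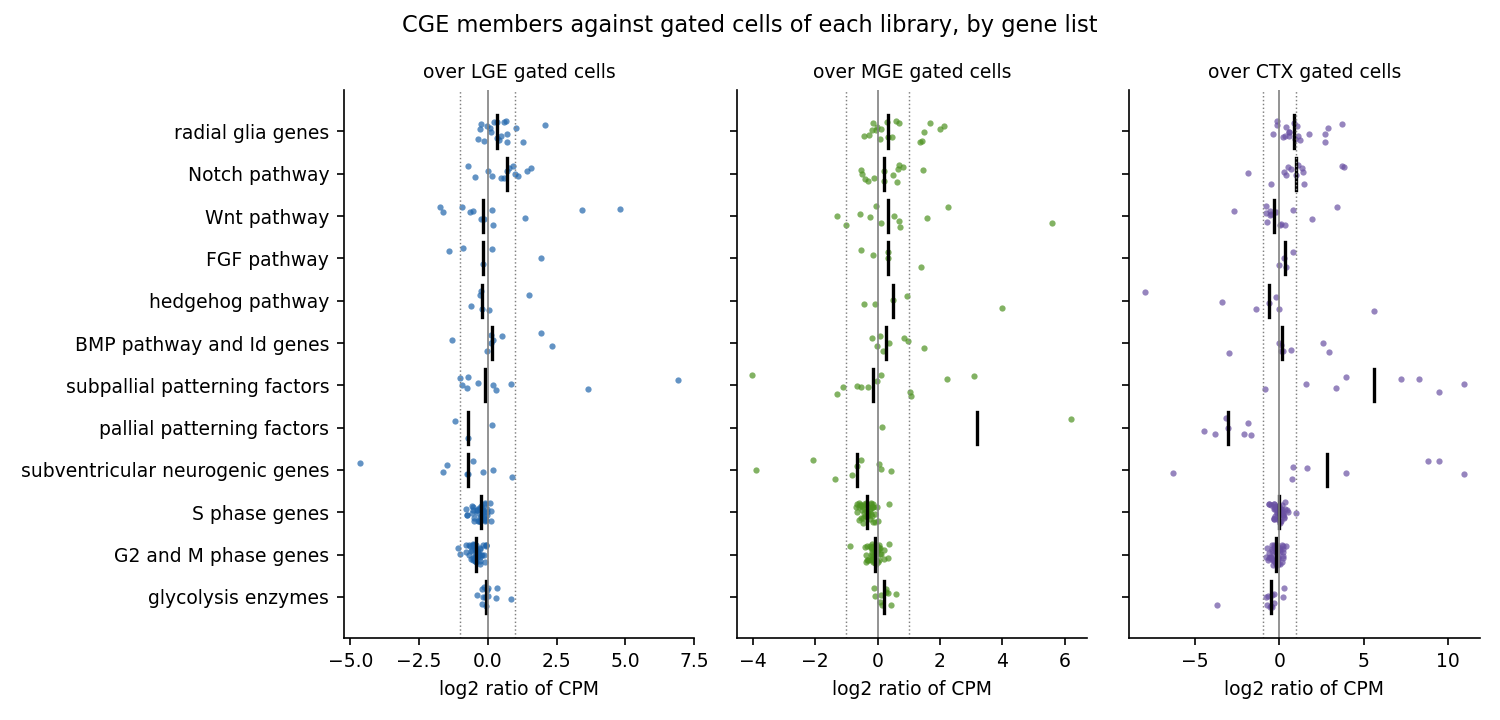
Log2 ratio of the level in CGE progenitors to that in gated LGE (left), MGE (middle) and CTX cells (right) for each tested gene of 12 lists, with a black bar at the list median, dotted lines at 2-fold and genes at 0 in either group left out. Cell cycle genes lay within or close to 2-fold in all 3 panels, and patterning factors spread furthest in the CTX panel, where subpallial factors had a median of 5.59 and pallial factors -3.04.

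The progenitors carried the genes of dividing cells. Against the other CGE cells 29 of 38 S phase genes and 39 of 49 G2 and M phase genes were higher and 0 lower, with median log2 ratios of 1.27 and 1.34. Over all genes tested the median was 0.07, with 11.1% higher and 11.2% lower. The Dcx limit placed high-Dcx cells among the other CGE cells, so these counts are a description and no independent check. Against gated cells elsewhere 0 of 41 S phase genes were called in either direction, and of 51 G2 and M phase genes 2 were lower than in LGE, Psrc1 and Anln. The medians were nevertheless below those of all genes, at -0.25, -0.34 and -0.03 for S phase and -0.44, -0.10 and -0.19 for G2 and M phase against LGE, MGE and CTX. Mki67, a protein of dividing cells, was found in 39.3% [31.7–47.2] of thinned progenitors, 57.1% [52.9–61.2] of LGE, 49.1% [44.7–53.5] of MGE and 52.9% [49.5–56.2] of CTX. Top2a, a topoisomerase, stood at 561 CPM against 966, 707 and 772, and the replication factor Nasp at 850 against 925, 985 and 803. In single cells the G2 and M phase genes took a median of 0.684% of UMIs in the progenitors, 1.17% in LGE, 0.881% in MGE and 0.994% in CTX.

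D cyclins differed by member. Ccnd1, the D cyclin of the VZ, stood at 320 CPM against 405 in LGE, 428 in MGE and 102 in CTX. Ccnd2 stood at 371 CPM against 1018 in LGE, 529 in MGE and 904 in CTX, which is 2.75-fold lower than in LGE and 2.44-fold lower than in CTX. Cdkn1c, an inhibitor that goes with leaving the cell cycle, stood at 14.5 CPM, against 102 in the other CGE cells, 17.9 in LGE, 59.6 in MGE and 37.3 in CTX. Over this list, 0 of 5 were higher and 1 lower than in LGE, 0 and 1 of 6 than in MGE, 1 and 2 of 6 than in CTX, and 3 and 1 of 6 than in other CGE cells.

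Genes of the step towards neurons differed by comparison. Of 9 subventricular neurogenic genes 0 were higher and 3 lower than in LGE (Insm1, Dlx5 and Mpped2), and 0 and 3 than in MGE (Insm1, Sp9 and Mpped2). Median log2 ratios were -0.72 and -0.65, beside 0.00 and 0.03 over all genes tested, of which 1.36% and 1.00% were lower. Insm1, a zinc finger factor of intermediate progenitors, stood at 94.3 CPM against 265 in LGE, 400 in MGE and 54.0 in CTX. Dlx1 and Dlx2, which stood at 254 and 276 CPM, were at 418 and 463 in LGE and at 400 and 396 in MGE. Against CTX 5 of 8 were higher and 1 lower, with a median of 2.80, and against other CGE cells 1 of 10 was higher and 5 lower. All 11 neuronal genes were lower than in the other CGE cells, with a median of -3.80, beside 11.2% lower over all genes tested. The Dcx limit placed young neurons among the other CGE cells, so this is a description of the gate. Tubb3, a neuronal tubulin, stood at 386 CPM against 3528. Against LGE 2 of 8 neuronal genes were higher and 2 lower, against MGE 2 and 1 of 8, and against CTX 4 and 0 of 5.

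Of the gliogenic list, Nfib (1020 CPM) was higher than in LGE (355) and MGE (497), and Olig2 was lower than in MGE (343) and higher than in LGE, though by less than 2-fold (87.9). In all, 1 of 6 was higher and 0 lower than in LGE, 1 and 3 of 7 than in MGE, 1 and 2 of 7 than in CTX, and 4 and 0 of 5 than in other CGE cells. Glycolysis enzymes were not called against LGE or MGE (0 of 13 and 0 of 10), and 1 of 12, Aldoc, was lower than in CTX at 32.3 against 425 CPM. Against the other CGE cells 5 of 11 were higher, Ldha among them at 579 against 138 CPM.

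The progenitors were compared among themselves after thinning each to 3000 UMIs, which left 163. One split was by Dlx2, found in 72 of them. Mt3 stood at 389 CPM in members with a Dlx2 UMI and at 777 in the 91 without, a ratio of 0.501 [0.384–0.648]. Fabp7 stood at 5523 and 7363 CPM, and Igfbp5 at 171 and 396. These 3 were lower beside Dlx2, while Slc1a3 gave a ratio of 0.784 [0.484–1.25], Ptx3 0.895 [0.637–1.25] and Wnt7b 0.843 [0.529–1.33], intervals that include 1. Dlx1, which lies next to Dlx2, stood at 574 and 98.9 CPM, a ratio of 5.80 [3.80–9.16]. Hes6, a factor that counters Hes1, stood at 583 and 220 CPM, and the neuronal differentiation factor Sox4 at 2074 and 1220. Hes5 gave a ratio of 1.07 [0.890–1.28] and Nr2f2 one of 1.01 [0.750–1.36]. Cells were split by a transcript from the same counts, so these values describe which transcripts were found together and are not a test. The intervals of all such splits leave out the spread between cells and are too narrow for it.

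Pairs of genes were also counted cell by cell. Of 94 members with Mt3, 36.2% held Dlx2, against 55.1% of the 69 without. Of 69 members with Igfbp5, 34.8% held Dlx2, against 51.1% of the 94 without. Over 163 members and as a description, the level of Fabp7 per cell had its highest Pearson correlations with Vim (0.52), Mt3 (0.51) and Dbi (0.47), and it was among the lowest with Dlx1 (-0.34). These values share the library and the thinned depth of each cell.

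Igfbp5 was lower beside Dlx2, and the split by Igfbp5 itself gave the reverse order. It used the same cells and counts, so this order is not independent of the split by Dlx2. In the 69 members with an Igfbp5 UMI, Slc1a3 stood at 246 CPM against 106 in the 94 without, Ptn, a secreted growth factor, at 589 against 287 and Ptx3 at 440 against 216. Dlx1 stood at 174 against 408, and Hes6 at 271 against 461. Nr2f2 was found in 71.0% of members with Igfbp5 and in 55.3% of those without, and Igfbp5 stood at 396 CPM in the 101 members with Nr2f2 and at 134 in the 62 without, a ratio of 2.95 [1.90–4.73]. Wnt7b was also higher beside Nr2f2, at 218 and 102 CPM. Nr2f1 stood at 1696 and 1220 CPM in the same split.

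**Figure D5:**
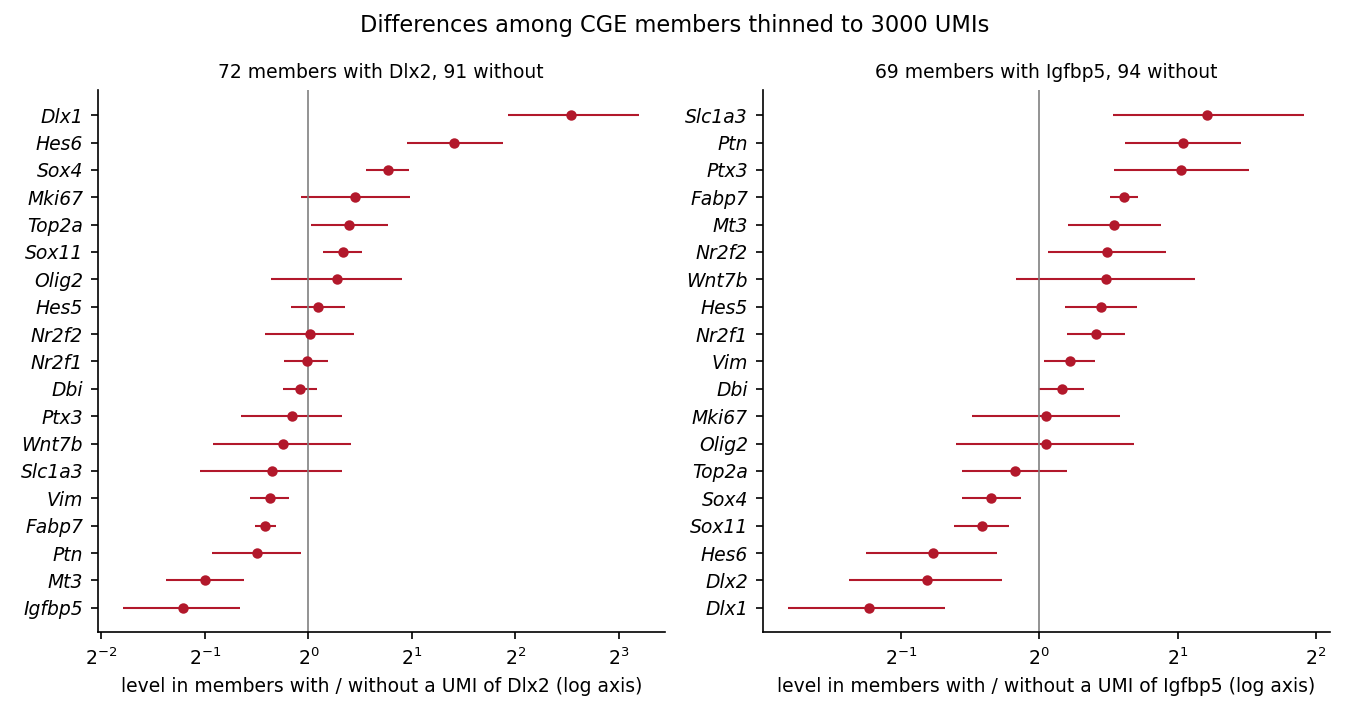
Ratio of levels between CGE progenitors with and without a UMI of Dlx2 (left, 72 and 91 cells) and of Igfbp5 (right, 69 and 94 cells), after thinning to 3000 UMIs, on a log axis with exact 95% intervals. Dlx1, Hes6 and Sox4 lie above 1 with Dlx2 and below 1 with Igfbp5, and Fabp7 and Mt3 lie below 1 with Dlx2 and above 1 with Igfbp5. Both panels divide the same cells and are not independent.

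Regional factors were found in few progenitors. Pax6 was found in 24, Nkx2-1 in 12 and Emx2 in 10 of the 163. No member held both Pax6 and Nkx2-1, where independent occurrence would give 1.77, and none held both Emx2 and Nkx2-1, where it would give 0.736, so these absences are within what so few cells allow. Emx2 was found with Pax6 in 2 members, where independence would give 1.47, and with Gsx2 in 4, where it would give 1.72. Of the 12 members with Nkx2-1, 8 also held Olig2, against 36.4% of the 151 without. Nr2f2 was found in 4 of these 12 and in 64.2% of the others. Members with a Mki67 UMI (64) and without (99) gave intervals that include 1 for Hes5 (ratio 1.07 [0.892–1.29]), Nr2f2 (1.14 [0.840–1.53]) and Igfbp5 (0.839 [0.585–1.19]). Other genes had intervals that leave out 1. Among them Fabp7 (0.773 [0.717–0.832]), Mt3 (0.665 [0.513–0.857]) and Wnt7b (0.609 [0.363–0.991]) were lower beside Mki67, and Nr2f1 (1.30 [1.13–1.51]) was higher. As these intervals leave out the spread between cells, they do not decide which genes differ with Mki67.

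Markers of other cell types were counted in the progenitors. The microglia list had 231 UMIs, of which 229 lay in 1 cell of 11391 UMIs that held all 6 markers. The mural list had 123 UMIs in 23 cells, 90 of them in 1 cell of 12436 UMIs, where they came from Rgs5 and Pdgfrb. The pallial neuron list had 27 UMIs, 20 of them of Eomes in 1 cell. Without these 3 cells C1qa, C1qb and Rgs5, all called higher in the progenitors in all 4 comparisons, had 0 UMIs, while Fabp7 stood at 6911 CPM, Igfbp5 at 262, Nr2f2 at 392 and Veph1 at 120. Endothelial markers had 4 UMIs with Cldn5, Cdh5, Kdr and Tie1 at 0, erythroid markers 6, choroid plexus and midline markers 17 and diencephalic markers 5. Fabp7, Igfbp5, Nr2f2 and Veph1, and also Wnt7b, Lrp4, Ptx3 and Hes5, were thus at least as high without the 3 cells that carried other markers.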

How the data were processed

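The authors deposited raw counts of UMIs per gene and cell barcode for 1 library per region, aligned to mm10 (GRCm38), with Cell Ranger 3.0.2 in the file headers and 3.0.0 in the submitters' processing notes. The paper gives default parameters for Cell Ranger. The annotation release and the use of strand were not named beyond this in the sources used here, and positions came from GENCODE M21 by gene ID. The study removed predicted doublets in its own analysis, and whether this preceded the deposited counts was not stated.

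UMIs were summed over the cells of a group, without replicates, and expressed as CPM with exact Poisson intervals. Ratios carry exact conditional binomial intervals and shares Clopper-Pearson intervals, all at 95% and for counting error only. A gene was tested where the mean CPM of both groups was 20 or more and called at 2-fold. Where a group had 0 counts the floor was 3 counts over the group. The 2-fold rule was tested on simulated counts. Doublets were scored from simulated cell pairs at 0.8% per 1000 barcodes and were kept, apart from an alternative without them. Python 3.11.15, numpy 2.4.6, scipy 1.17.1, pandas 2.3.3 and scikit-learn 1.9.0 were used.

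The members and the 26 gene lists were chosen with earlier results of these data known. Named genes were up to 6 per list, those highest in CPM and those furthest in ratio, the 10 with the largest ratio over other CGE cells and over the highest other library, and the 10 with the smallest ratio under the lowest, at 100 CPM or more. Other list genes with a call, genes of the pairs and splits and genes high in single cells were added after their values were seen. Some genes that the rule names are not reported here. The alternatives were other Nes and Dcx limits, no upper gene limit, no doublets, no cells with pallial genes, thinned cells, other scaling, means over cells and other filters on low values. An alternative without the cells of any library that held 10 or more UMIs of another cell type's markers was chosen after seeing the data.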

Additional observations from a re-analysis of the deposited data

Results flagged for a closer look

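CGE barcodes outside the gene limits were not used in the comparisons, and 2 sets of them passed the Nes and Dcx gate. Both sets, and the barcodes they are set against, came from the same libraries as the cells above. They are therefore no independent check of the order of the regions. The 60 with 4500 or more genes had a median of 18972.5 UMIs, and their summed levels were 10140 CPM for Fabp7, 270.7 for Igfbp5, 351.3 for Nr2f2 and 119.3 for Veph1, all above the levels in gated barcodes of the other libraries with as many genes. The 10 genes furthest above every other library in the report were at least 2-fold above the highest of them in 10 of 10 cases here, by 2.88 to 8.01 times. Doublets among these 60 barcodes were not counted. The 38 with 1500 or fewer genes had a median of 1446.5 UMIs and held 7297 CPM of Fabp7, 85.65 of Igfbp5 and 239.8 of Nr2f2. Here 3 of the 10 genes were at least 2-fold above the highest other library, with ratios from 0.374 to 6.63, and Igfbp5, Lrp4 and Cdh4 lay below it. Igfbp5, Lrp4 and Cdh4 had 5, 1 and 2 UMIs among the 58377 of these CGE barcodes, against 19 in MGE, 6 in LGE and 3 in MGE. The 3 genes above, Nr2f2, Ptx3 and Ly6h, had 14, 10 and 8 UMIs. Counts this low do not settle the order of the libraries.

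The step from gated to high-Dcx cells was looked at for the 10 genes furthest above and the 10 furthest below every other library. All were chosen by their levels in gated cells, which enter this ratio, so its directions are a description. For a pair of these genes the step ran in opposite directions in the CGE and the CTX. Wnt7b in gated cells was 11.64 times its level in high-Dcx cells in the CGE and 0.06902 times in the CTX. Mpped2 was at 0.0372 times in the CGE and 3.452 times in the CTX. With 1 library per region the difference was not tested.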

How the results depend on the processing

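No paired analysis was possible because each region had 1 library. The share of kept CGE cells in the gate was 10.2% with Nes above 1.0, 2.16% with Nes above 2.0, 4.16% with Dcx at most 0.5, 6.36% without the upper gene limit and 3.5% after thinning. Counts of genes at 2-fold moved with the filter on low values. With a mean CPM of 5 or more, 1482 were higher and 1444 lower than in other CGE cells, 352 and 290 than in LGE, 368 and 279 than in MGE, and 664 and 442 than in CTX. With 50 or more they were 372 and 390, 57 and 32, 53 and 24, and 138 and 64. Thinning each cell gave 202 higher and 142 lower than in LGE, and 196 and 120 than in MGE. With Nes above 2.0, which left 70 members, 168 were lower than in LGE, 110 than in MGE and 242 than in CTX. The cause of these moves was not tested, though fewer genes enter under the higher filter and fewer cells under the higher Nes limit. Of the log2 ratios of named genes, 184 of the 466 with a value left their counting interval with Nes above 2.0, 146 of 486 with Nes above 1.0, 138 of 487 without the upper gene limit and 120 of 474 after thinning. Under each other setting from 8 to 51 did, and none that was called changed sign. Size factors by the median of ratios shifted all genes by at most 0.097 on the log2 scale. They gave 655 genes higher and 897 lower than in other CGE cells, beside 762 and 775 in the main setting. Without the cells of each library that carried other markers, an alternative chosen after seeing the data, the 162 members left gave 750 higher and 776 lower than in other CGE cells, 129 and 92 than in LGE, 130 and 68 than in MGE and 269 and 156 than in CTX. The chief limits are 165 cells from 1 library, in which 3 counts are 1.98 CPM.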
